A study of Mus musculus with 54 samples.

Results

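Enteroendocrine cells, the hormone-secreting cells of the gut lining, were picked out of single-cell RNA data of the mouse small intestine by a gate on 9 genes. A cell was kept with at least 500 genes, at least 1000 unique molecular identifiers (UMIs, each marking 1 captured RNA molecule) and under 25% of its UMIs on mitochondrial genes. A kept cell was called enteroendocrine when at least 4 of Chga, Chgb, Neurod1, Isl1, Pax6, Scg5, Fev, Scgn and Cpe had 1 or more UMIs in it. The gate took 173 of 9156 kept cells. By sample these were 31 of 1197 cells in wild type (WT) set 1, 28 of 1241 in knockout (KO) set 1, 46 of 3363 in WT set 2 and 68 of 3355 in KO set 2.

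The series measured RNA in the mouse small intestine around the microRNA miR-375, and 4 of its 54 samples are used here. All 4 hold dissociated small intestinal cells of mice aged 12 months and of the strain labelled C57BL6/2J, run on the 10X Genomics Chromium. The genotype is labelled WT in 2 samples and miR-375 knockout in 2, with 1 of each in set 1 and in set 2. The labels do not say how the allele was made, whether it was lost in the whole animal, or how many mice went into a sample. The p-values here therefore speak only for these samples, whose spread may be technical.

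Enteroendocrine cells are scattered singly among the absorptive and secretory cells of the epithelium and arise from the same crypt stem cells through a step that needs the transcription factor Neurog3. They store peptide hormones in dense-core granules and release them when nutrients, microbial products or irritants reach their receptors. Enterochromaffin cells, the serotonin-making branch, use Tph1 for the first step of serotonin synthesis and often also make Tac1, the precursor of substance P. miR-375 is abundant in endocrine cells of the pancreas and gut and is known for limiting insulin secretion.

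The samples differed in more than genotype. The matrices held 24533466 to 70409055 UMIs. The median depth of kept cells outside the gate was 16355 and 16011 UMIs in WT and KO set 1, 6451 in WT set 2 and 14190 in KO set 2, while gated cells had medians of 11858, 10448, 12836 and 8303 UMIs in the same order. Cells with 3 or more markers of a lymphocyte, plasma, myeloid or stromal list made up 15.6% of the kept cells in WT set 1, 21.9% in KO set 1, 48.8% in WT set 2 and 27.3% in KO set 2. No barcode was gated in more than 1 library, although WT and KO set 2 shared 12 barcodes in all, 1 of them a gated cell of WT set 2. Mature microRNAs are not counted in these messenger RNA libraries, so the counts check the knockout in no sample. Some neighbours of its gene were read. Fev, one of the gate genes, lies 15.2 kb from Mir375 on chromosome 1 in the GRCm38 annotation and Cryba2 lies 7.52 kb from it. Cfap65 lies closer, at 1.35 kb, and no count of it is given here. Fev had 112, 135, 118 and 115 UMIs in the gated cells of WT and KO set 1 and of WT and KO set 2, and Cryba2 had 63, 69, 71 and 118. Fev and Cryba2 were therefore read in both genotypes and in both sets, though Fev was also used to choose the cells.

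Few cells lay near the threshold. Of the kept cells, 7498 had none of the 9 genes, 1386 had 1, 90 had 2 and 9 had 3, while 10 had 4 and 55 had all 9. The 10 cells just inside the threshold had a median of 0.0839% of their UMIs on peptide hormone genes, against 0.0106% in the 9 cells just outside it and 12.5% in the cells with all 9 genes. The cells just inside ranged from 0.0071% to 31.2%, so they were a mixed group. The label was checked on genes outside the gate: Gcg, Cck, Gip, Scg2, Ghrl, Pyy and Tac1 were all among the 20 leading genes of the gated cells. Markers of tuft cells, which also carry some endocrine genes, summed to only 7.88 to 36.8 CPM (UMI counts scaled to a sum of 1000000 per sample) in the 4 samples, with Gnat3 at 0 in all.

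**Figure D1:**
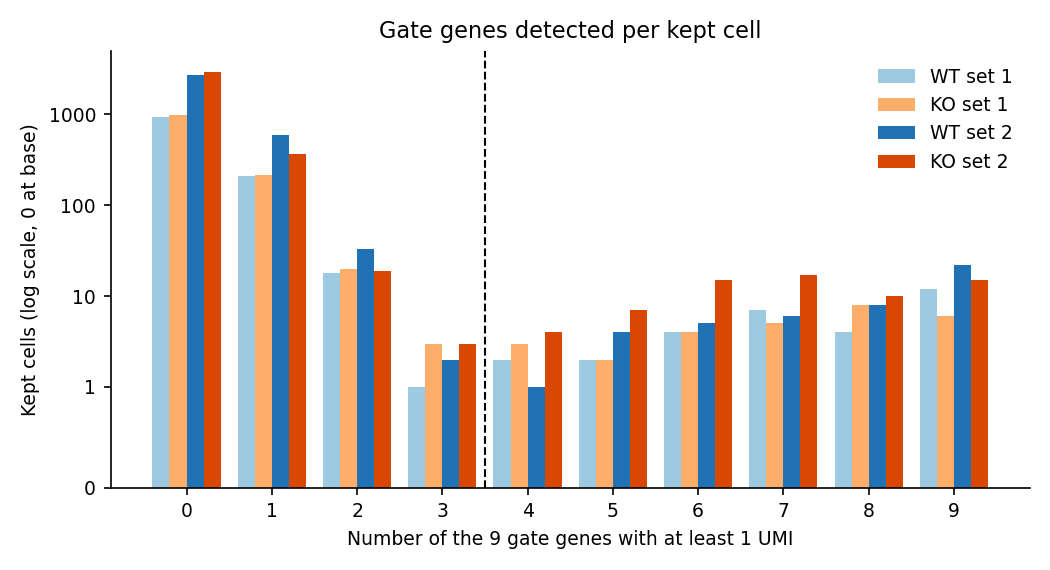
Number of kept cells (y, log scale with 0 at the base) by how many of the 9 gate genes had a UMI (x), for the 4 samples, with the dashed line at the gate. Each sample has 1 to 3 cells at 3 genes, 1 to 4 cells at 4 genes and many more at 0 and 1. A separate group of cells lies at 5 to 9 genes.

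The cells were chosen on these counts, so levels against the rest of the tissue are given as a description and were not tested. In the summed UMIs of the gated cells, expressed as CPM, 1378 genes had a mean of at least 100 CPM, and 50 of these (3.63%) were at least 10 times as high as in the other kept cells in all 4 samples. Gip, the glucose-dependent insulinotropic hormone of K cells, was the most abundant peptide at 37648, 42198, 24245 and 28076 CPM in WT and KO set 1 and in WT and KO set 2, against 4.60 to 32.0 CPM in the other kept cells, 7.72% to 39.2% of which held a Gip UMI. Cck, the hormone that makes the gallbladder contract, stood at 12337, 11248, 12323 and 8412 CPM. Sct, secretin, stood at 6788, 4630, 7305 and 7533 CPM. The order Gip above Cck above Sct held in every sample.

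Ghrl and Gcg changed places with Sct between samples. Ghrl, the hunger hormone ghrelin, was at 9944 CPM in WT set 1 and at 4415, 1857 and 2083 CPM in KO set 1, WT set 2 and KO set 2. Gcg, whose product in the gut is glucagon-like peptide 1, was at 5035, 4809, 7678 and 3535 CPM. Sst, somatostatin, was at 2658 CPM in WT set 1 and 2055 in KO set 2 but at 2.29 in KO set 1 and 23 in WT set 2. Sst was thus high in 1 sample of each genotype and of each set, and it came from few cells, with 4, 1, 2 and 5 gated cells holding a UMI.

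Among the transcription factors, Neurod1, a gate gene that acts below Neurog3, was at 238 to 365 CPM, Insm1, a repressor that secretory precursors need, at 193 to 238 CPM, and Nkx2-2 at 96.9 to 156 CPM. The genes lowest in the gate against the rest were Paneth cell defensins, the goblet gene Zg16 (mean 360 CPM against 7332) and the ileal bile acid carrier Fabp6 (51.2 against 540). Zg16 still had a UMI in 26, 26, 43 and 63 gated cells, so UMIs of this abundant goblet gene were present in most gated cells.

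Most gated cells could be sorted by the gene with most UMIs in the cell among the peptide hormones and Tph1, provided it had at least 3 UMIs and at least 1 per 1000 of the cell's UMIs. Gip led in 39 of 173 cells, Tac1 in 27, Cck in 25, Ghrl in 18, Sct in 18, Gcg in 8, Sst in 7 and Nts in 5, and 26 cells had no such peptide. Mixed cells were common: 107 gated cells (61.8%) held 2 or more peptide hormones above the same level, Tph1 not counted, and 37 gated cells were among those with the highest doublet scores, whose part in this was not tested. In 28 of the 39 cells led by Gip the next peptide was Sct, and in 13 of the 25 led by Cck it was Gcg. In the 8 cells led by Gcg, it was Cck in 6 and Pyy in 2.

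Other genes varied with the leading peptide, given here over all 4 samples together and without a test. Tph1 was itself among the genes sorted on, though it led in no cell, and Isl1, Scgn and Pax6 are gate genes. Lmx1a, a transcription factor of the serotonin branch, had a UMI in 81.5% of the 27 cells led by Tac1 and in 38.9% of the 18 led by Sct, and in none of the 90 cells led by Gip, Cck, Gcg or Ghrl. Tph1 was found in 85.2% of the cells led by Tac1, at 514 CPM, and in 38.9% of those led by Sct, at 750 CPM, and again in none of those led by Gip, Cck, Gcg or Ghrl. Mnx1 was found in 48.1% of the cells led by Tac1, and Scn3a, a voltage-gated sodium channel, in 100% of them. Most cells led by Tac1 thus held UMIs of enterochromaffin genes. Outside the gate a UMI of Lmx1a was found in at most 0.0302% of kept cells and a UMI of Tph1 in at most 0.343%.

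Isl1, a gate gene, gave the opposite picture, with a UMI in 7.41% of the cells led by Tac1 and in 100% of the cells led by Gip, Cck, Gcg or Ghrl. Because Isl1, Scgn (18.5%) and Pax6 (48.1%) were often missing from cells led by Tac1, these cells had a median of 6 gate genes, against 8 for Gip and 9 for Cck, and they lay nearer to the threshold.

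Listed genes of excitability and nutrient sensing varied more widely between the 6 peptide groups than listed granule and exocytosis genes. The granule list left out the gate genes Chga and Chgb, which varied widely. Chgb ran from 155 CPM in cells led by Ghrl to 22442 in those led by Tac1. Chga ran from 46.8 CPM in cells led by Gip to 4414 in those led by Sct. Of the listed genes that reached 50 CPM in at least 1 group, 9 of 16 sensing genes and 4 of 24 granule genes were over 10 times as high in the highest group as in the lowest. Rab3d and Vamp2, proteins of secretory vesicles, differed by under 2 times, at 105 to 155 CPM and 47.7 to 54.2 CPM. Ffar1, a receptor of long-chain fatty acids, was at 380 CPM in cells led by Cck and 325 in those led by Gcg, but at 2.75 CPM in those led by Tac1. Ffar2, a receptor of the short-chain fatty acids that microbes make, was at 338 CPM in cells led by Ghrl, 168 in those led by Tac1 and 4.68 in those led by Gip. Abcc8, a subunit of the channel that couples glucose to secretion in the pancreas, was at 158 CPM in cells led by Cck and at 0 in those led by Tac1. Cnr1, the cannabinoid receptor CB1, was at 119 CPM in cells led by Gip and 78.8 in those led by Cck, and at 0 in cells led by Gcg, Ghrl or Tac1. Etv1 was at 336 and 356 CPM in cells led by Cck and Gcg and at 0 in those led by Ghrl. Neurog3 was at 449 CPM in cells led by Ghrl, with a UMI in 72.2% of them, and at 0 in those led by Gip. In cells led by Tac1 its UMIs were nearly all from KO, with 83 in 20 KO cells against 2 in 7 WT cells, and in cells led by Ghrl there were 84 in 10 KO cells and 29 in 8 WT cells.

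Median depth was 8371 to 11979 UMIs in the 6 groups led by a named peptide of at least 8 cells, and 18473 UMIs in the cells with none. After each cell was thinned to 1000 UMIs, Tph1 was still found in 48.1% of cells led by Tac1 and 27.8% of those led by Sct and in none led by Gip, Cck, Gcg or Ghrl. Lmx1a was then found in 14.8% and 16.7% of these 2 groups, or 4 of 27 and 3 of 18 cells. Its higher share in cells led by Tac1 was thus not seen at 1000 UMIs, where few cells held it. Before thinning Lmx1a was at 140 CPM in cells led by Tac1 and 82.9 in those led by Sct. Mnx1 was found after thinning in 7.41% of cells led by Tac1. Neurog3 was then found in 55.6% of cells led by Ghrl and 14.8% of those led by Tac1, and Isl1 in 66.7% and 0%.

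**Figure D2:**
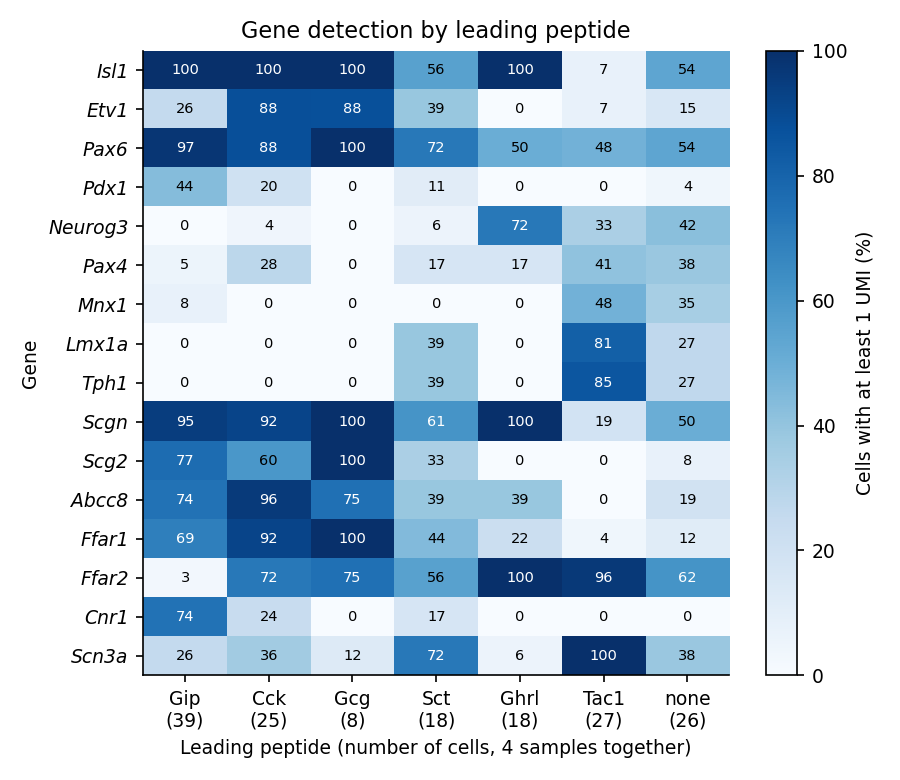
Share of gated cells with at least 1 UMI of each gene (rows, %), by the leading peptide of the cell (columns, number of cells over the 4 samples in brackets). Lmx1a and Tph1 stand at 0 in the columns Gip, Cck, Gcg and Ghrl, and Isl1 stands at 100 there and at 7 under Tac1.

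The promoters of Tac1, Sct and Gip, each of which led some of the gated cells, and of the gate gene Chga are shown. Each is the 250 bases before the start site from RefSeq (GRCm38.p6), written 5′ to 3′ on the strand of the gene, with matches of the E-box motifs CAGATG and CAGCTG in capitals. E-boxes are the motif class that Neurog3 and Neurod1 are known to bind, and both strands were searched; no pair of matches overlaps in these 4 promoters.
Tac1 promoter, chr6:7554811-7555060, plus strand: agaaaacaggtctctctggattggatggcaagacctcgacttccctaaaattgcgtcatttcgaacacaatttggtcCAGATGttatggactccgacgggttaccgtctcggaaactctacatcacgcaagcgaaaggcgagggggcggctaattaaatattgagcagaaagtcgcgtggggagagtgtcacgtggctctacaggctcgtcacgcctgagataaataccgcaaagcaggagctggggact
Sct promoter, chr7:141279134-141279383, minus strand: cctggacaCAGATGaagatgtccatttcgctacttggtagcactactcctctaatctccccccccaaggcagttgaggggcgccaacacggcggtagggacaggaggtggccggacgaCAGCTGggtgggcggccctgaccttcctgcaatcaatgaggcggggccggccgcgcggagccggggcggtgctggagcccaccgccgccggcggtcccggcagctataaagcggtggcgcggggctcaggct
Gip promoter, chr11:96024295-96024544, plus strand: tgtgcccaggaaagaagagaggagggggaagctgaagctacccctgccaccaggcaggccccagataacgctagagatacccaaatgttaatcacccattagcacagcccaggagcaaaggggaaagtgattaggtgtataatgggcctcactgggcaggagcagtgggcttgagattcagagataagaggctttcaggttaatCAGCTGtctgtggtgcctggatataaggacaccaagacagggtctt
Chga promoter, chr12:102554691-102554940, plus strand: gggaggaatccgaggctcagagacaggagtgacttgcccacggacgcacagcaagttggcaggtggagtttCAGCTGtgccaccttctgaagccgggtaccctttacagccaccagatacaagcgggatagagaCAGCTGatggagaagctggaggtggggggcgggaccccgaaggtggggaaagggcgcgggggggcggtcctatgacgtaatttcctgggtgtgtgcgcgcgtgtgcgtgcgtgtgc
Sct held 1 match of each motif, 242 and 132 bases before the start, and Chga held 2 matches of CAGCTG, 179 and 116 bases before it. Gip held 1 CAGCTG at 46 bases and Tac1 held 1 CAGATG at 173 bases. Of the 24 gate genes, leading genes and main peptides, 21 had a promoter in the table, and 11 of these (52.4%) held a match in at least 1 promoter, while 11 of their 26 promoters (42.3%) did. Over all 32851 promoters the share was 25.5%. A match is a string of letters here, not a site shown to be bound.

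The first comparison asked whether the knockout had more or fewer enteroendocrine cells. It was not resolved: the share of kept cells in the gate was 2.59% in WT set 1 (95% Clopper-Pearson interval 1.77% to 3.66%), 2.26% in KO set 1 (1.504% to 3.24%), 1.37% in WT set 2 (1.003% to 1.82%) and 2.03% in KO set 2 (1.58% to 2.56%). These intervals cover counting error only. The KO share was 0.334 points lower than WT in set 1 and 0.659 points higher in set 2, and the genotypes overlapped. The mean was 1.98% ± 0.864 in WT and 2.14% ± 0.162 in KO (SD, n = 2 each), a difference of 0.163 points with an exact two-sided permutation p = 1, where 6 relabelings allow no p under 0.3333. The share of non-epithelial cells ran in the opposite order, highest in WT set 2 where the gated share was lowest. Over epithelial cells alone the gated shares were 3.07%, 2.89%, 2.67% and 2.79% in WT and KO set 1 and in WT and KO set 2. That difference was -0.0329 points, with the opposite sign.

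The makeup of the gated cells by leading peptide was then compared between genotypes. Tac1 led in 2 of 31 gated cells in WT set 1 (6.45%), 5 of 28 in KO set 1 (17.9%), 5 of 46 in WT set 2 (10.9%) and 15 of 68 in KO set 2 (22.1%). The Tac1 share was higher in KO in both sets and the genotypes did not overlap, with means of 8.66% ± 3.12 in WT and 19.96% ± 2.97 in KO (SD, n = 2 each), a difference of 11.3 points. No test was made on this share, since 2 samples per genotype allow no exact permutation p under 0.3333, and the binomial intervals of WT and KO overlapped in both sets. The size of the gap within a set depended on the minimum of 1 UMI per 1000. With 3 UMIs asked and no such minimum, an alternative added after these values were seen, Tac1 led in 12.9% of cells in WT set 1, 32.1% in KO set 1, 19.6% in WT set 2 and 23.5% in KO set 2, so the gap in set 2 shrank to 16 of 68 against 9 of 46 cells. After thinning to 1000 UMIs the shares were 6.45%, 25%, 13% and 20.6% in WT and KO set 1 and in WT and KO set 2.

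The other peptides did not separate the genotypes. Gip led in 25.8% and 25% of gated cells in WT and KO set 1 and in 19.6% and 22.1% in WT and KO set 2. Cck led in 16.1% and 17.9% in set 1 and in 19.6% and 8.82% in set 2. Ghrl led in 19.4% and 10.7% in set 1 and in 4.35% and 10.3% in set 2, so its order reversed between the sets. Sst led in 3 cells of WT set 1, 4 of KO set 2 and in none of the other samples, where counts of 0 of 28 and 0 of 46 cells allow shares of up to 10.7% and 6.52% by the limit of 3 counts, and up to 12.3% and 7.71% by the exact 95% interval.

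**Figure D3:**
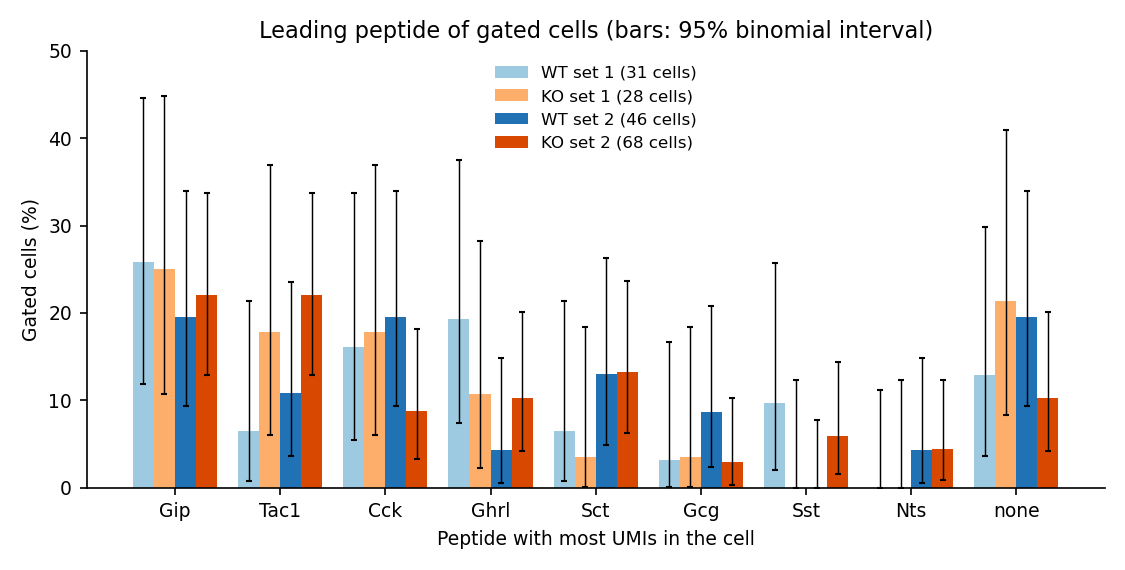
Share of gated cells (y, %) by leading peptide (x) in each sample, with exact 95% binomial intervals as error bars that cover counting error only. The Tac1 bars are higher in KO than in WT in both sets, at 17.9% against 6.45% and 22.1% against 10.9%, and the intervals overlap.

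The next question was which genes differed between KO and WT within the gated cells. UMIs were summed over the gated cells of a sample, so deep cells weigh more in a sum. In WT set 2, single cells without a leading peptide held 118073, 96122, 82091, 75504 and 55349 of the 1001276 gated UMIs. The 4 sums were tested with edgeR's quasi-likelihood test, with the set as a block and Benjamini-Hochberg adjustment over 7805 genes. At an adjusted p under 0.05, 37 genes (0.474%) were called, 34 higher in KO (0.436%) and 3 lower (0.0384%), and 36 of them had the same sign in both sets. The fit had nearly as many terms as sums, so its p-values lean on a spread estimated over all genes. A very small p is thus not a measure of replication. Without the set block no gene was called and 117 had an unadjusted p under 0.05, against 411 with it. The calls leaned on single cells. For 24 of the 37, 1 cell held over 50% of the gene's UMIs in a sample of the higher genotype. When the cell richest in a gene was left out of each sample, an alternative added after these values were seen, Reg4 alone, higher in KO, was called among 6909 genes (0.0145%), and 26 of the 37 were still tested, all with the same sign.

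**Figure D4:**
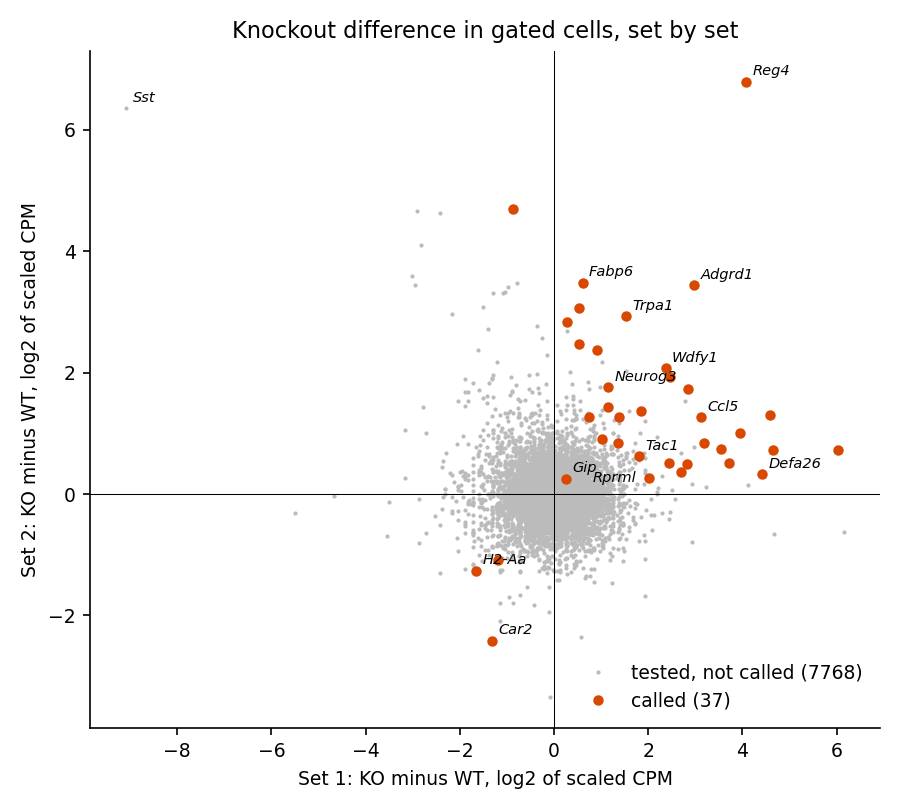
KO minus WT difference of each tested gene in the gated cells, on the log2 scale of TMM-scaled CPM, in set 1 (x) and set 2 (y), with the 37 called genes in orange. Most called genes sit in the upper right part, H2-Aa, H2-Ab1 and Car2 sit in the lower left, and Sst, not called, sits at -9.08 in set 1 and 6.36 in set 2.

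Reg4, a secreted lectin also made by goblet and deep secretory cells, had the largest difference among the called genes. It had 109 UMIs in 4 cells of WT set 1, 1504 in 8 cells of KO set 1, 16 in 3 cells of WT set 2 and 2096 in 10 cells of KO set 2. Both KO sums were far above both WT sums, but in set 1 each sum rested mostly on 1 cell. That cell held 1429 of the 1504 UMIs in KO set 1 and 102 of the 109 in WT set 1. The difference was 5.398 on the log2 scale with a standard error (SE) of 0.41 (edgeR adjusted p = 8.43e-09), 4.07 in set 1 and 6.80 in set 2, and 6.59 without the richest cells (edgeR adjusted p = 0.0394). Without the set block it was 4.61 (edgeR adjusted p = 1.000). The 5 cells with most Reg4 were all KO, held 1429, 823, 507, 459 and 259 UMIs of it, and were led by Tac1 or Sct. All 5 had UMIs of Tph1 or Tac1, and cells led by Tac1 or Sct held 51.6% and 42.7% of all Reg4 UMIs in the gate. The KO set 1 cell with 1429 UMIs had 4 gate genes, and where 5 were needed the difference was 2.66 (edgeR adjusted p = 0.326). In the other epithelial cells Reg4 was at 213, 136, 108 and 178 CPM in WT and KO set 1 and in WT and KO set 2, a difference of 0.04 on the log2 scale (SE 0.40, edgeR adjusted p = 0.999).

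Tac1 and Neurog3 were the called genes that belong to the endocrine programme itself, besides Gip and Trpa1. Tac1 had 176, 502, 680 and 1052 UMIs in WT and KO set 1 and in WT and KO set 2, or 374, 1313, 637 and 983 CPM after scaling. Both KO levels were above both WT levels, by 1.21 on the log2 scale (SE 0.25, edgeR adjusted p = 0.0149), by 1.81 in set 1 and 0.62 in set 2. The edgeR call was lost with RLE scaling (adjusted p = 0.0639), without the Paneth-rich cell described further on (0.0613), without the richest cells (0.475), with at least 10 counts asked of every sample (0.15), and without the set block, without cells carrying non-epithelial markers, with DESeq2 or with any 1 sample left out. The difference stayed between 0.88 and 1.85 over all alternatives.

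Neurog3 had 52, 95, 30 and 109 UMIs in WT and KO set 1 and in WT and KO set 2, in 9, 7, 4 and 16 cells. It was higher in KO within each set, although the scaled levels of 110 CPM in WT set 1 and 102 in KO set 2 overlapped between sets. The difference was 1.49 on the log2 scale (SE 0.24, edgeR adjusted p = 0.00085) and was 2.10 without the richest cells (edgeR adjusted p = 0.125), where the call was lost, as it was without the set block and with DESeq2. In the other epithelial cells Neurog3 was also higher in KO by 0.71 (SE 0.17), and this was not called (edgeR adjusted p = 0.999). Gip had 19119, 18391, 24276 and 28991 UMIs and a small difference of 0.25 (SE 0.06, edgeR adjusted p = 0.0368), nearly equal in the 2 sets, and levels overlapped between the genotypes across sets. It was 1.05 with doublet-scored cells removed (edgeR adjusted p = 0.0701) and 0.45 without cells carrying non-epithelial markers (0.126), and the call was also lost with at least 10 counts in every sample (0.43), after thinning (0.999), without the richest cells (0.236), without the set block and with DESeq2. The Gip difference turned negative when WT set 2 or KO set 1 was left out without a block, at -0.11 and -0.22.

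Other genes of enterochromaffin cells mostly did not pass the test. Trpa1, the irritant channel of enterochromaffin cells, had 3, 9, 3 and 42 UMIs in WT and KO set 1 and in WT and KO set 2, a difference of 3.06 (SE 0.55, edgeR adjusted p = 0.00356), and too few UMIs were left to test it without the richest cells. Most Trpa1 UMIs of KO came from the 5 cells richest in Reg4. Of the 9 in KO set 1, 5 were in such a cell, and of the 42 in KO set 2, such cells held 15, 10, 8 and 3. The calls of Reg4 and Trpa1 thus rest on the same few cells. Tph1 had 21, 33, 146 and 212 UMIs and was not called (0.66, SE 0.23, edgeR adjusted p = 0.507). Scn3a had 13, 24, 86 and 119 UMIs and was not called (0.67, SE 0.27, edgeR adjusted p = 0.78). Of the 9 genes on the serotonin list, all tested, 0 were called, all 9 had a positive difference and 5 had the same sign in both sets. The list's median was 0.66, against -0.01 over all genes tested.

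The remaining endocrine lists, chosen with earlier results of these data known, showed few calls. Of 19 peptide hormone genes, 10 were tested and 2 were called, Tac1 and Gip, both higher in KO, with a median of -0.22 over the 10. Cck (-0.28), Gcg (-0.53), Pyy (-1.11) and Ghrl (-0.44) had negative differences that were not called, with edgeR adjusted p from 0.188 to 0.831. Sst had a difference of -0.24 (SE 4.66) that was -9.08 in set 1 and 6.36 in set 2. Of 27 transcription factors, 24 were tested and 1 was called, Neurog3, with a median of 0.19. Of 30 granule and exocytosis genes, 25 were tested and none was called, with a median of 0.01 and 13 of 25 positive. Of 26 genes of excitability and nutrient sensing, 17 were tested and Trpa1 was called, with a median of 0.06. Of 16 genes reported elsewhere as miR-375 targets, 13 were tested and none was called, with 9 positive and a median of 0.08. Over all genes tested, 37 of 7805 (0.474%) were called at the same threshold. The DESeq2 fit called 1 gene in all, Reg4, so it made no call on any of these lists. The 9 gate genes were used to choose the cells, so their differences are given without a test result. They ran from -0.28 (Pax6) to 0.52 (Neurod1).

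Simulated sums of the same size gave a guide to what such counts can recover. They were drawn with the spread estimated in the same blocked fit and a set effect shared by both genotypes. Single cells holding most of a gene's UMIs were not simulated. With 7474 genes, 8 of 92 genes changed 2-fold (8.7%) and 72 of 92 changed 4-fold (78.3%) were recovered. Even in this setting most changes as small as 2-fold were missed.

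Genes of other epithelial cells made up many of the calls. Of 8 goblet genes, all tested, 5 were called higher in KO: Muc2 (1.33), Agr2 (1.33), Zg16 (1.61), Spink4 (1.01) and Clca1 (1.74), with a list median of 1.19 and the other 3 positive. Agr2, a chaperone of mucin folding, had 316, 670, 715 and 1735 UMIs in 22, 20, 30 and 40 gated cells of WT and KO set 1 and of WT and KO set 2. Both KO levels, 1753 and 1621 CPM after scaling, were above both WT levels, 671 and 670 (edgeR adjusted p = 0.000359). Much of Agr2 came from few cells. In KO set 1, single cells held 385 and 232 of the 670 UMIs, and in KO set 2 single cells held 524, 390 and 247 of the 1735. A cell of WT set 2 held 449 of the 715, and the richest cell of WT set 1 held 114 of the 316. Without the richest cells Agr2 was not called. Zg16 had 344 of its 528 UMIs of KO set 2 in 1 cell, and its difference was 0.57 without the richest cells. The summed level of the 8 goblet genes was 5588, 7694, 2409 and 5596 CPM in the gated cells and 20677, 28819, 29094 and 27264 CPM in the other kept cells. Goblet RNA in the gate was thus higher in KO within each set, and its part in the differences of Reg4 and the goblet genes was not tested. The 5 cells with most Reg4 had 0, 0, 1, 1 and 13 UMIs of Agr2 and 0 of Muc2. The KO cells with 385, 232, 524, 390 and 247 UMIs of Agr2 had 1, 6, 0, 11 and 1 UMIs of Reg4.

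Paneth genes rested on 1 cell. Of 7 Paneth genes tested, 5 were called higher in KO (Ang4, Clps, Defa17, Defa24 and Itln1), as were further defensins such as Defa26 (edgeR adjusted p = 0.000419), whose near-identical copies can share reads. A single KO set 1 cell of 46208 UMIs, with 4 gate genes, had 34.6% of its UMIs on defensins and Lyz1, and the next highest gated cell of KO set 1 had 0.436%. Without it 16 genes of 7778 (0.206%) were called, 13 higher (0.167%) and 3 lower (0.0386%), 16 of the original 37, and no Paneth gene was among them. Fabp6 had 2, 3, 14 and 186 UMIs, 171 of the last in 1 cell. Apoa4, the 1 enterocyte gene called among 12, was lower in KO in set 1 (-0.86) and higher in set 2 (4.70), with 10, 4, 3 and 150 UMIs. The T cell chemokine Ccl5 had 32, 235, 17 and 45 UMIs (2.52, SE 0.30, edgeR adjusted p = 2.64e-05), and KO set 1 had 9 gated cells with 3 or more T lymphocyte genes, against 3, 3 and 1 in WT set 1, WT set 2 and KO set 2. With the 17 gated cells that carried 3 or more non-epithelial markers removed, Reg4 was the only gene called (edgeR adjusted p = 0.0445).

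The 3 genes lower in KO were the class II antigen presentation genes H2-Aa and H2-Ab1 and the carbonic anhydrase Car2. H2-Aa had 100, 25, 126 and 51 UMIs in WT and KO set 1 and in WT and KO set 2, in 18, 16, 22 and 15 cells. Both KO samples were below both WT samples, and H2-Aa fell by 1.47 on the log2 scale (SE 0.24, edgeR adjusted p = 0.000848). H2-Ab1 had 86, 30, 160 and 74 UMIs and fell by 1.16 (SE 0.22, edgeR adjusted p = 0.00702). Cd74, the chaperone of class II molecules, had 344, 125, 645 and 403 UMIs and a difference of -0.91 that was not called (SE 0.23, edgeR adjusted p = 0.108). Car2 had 8, 2, 55 and 8 UMIs, 35 of the 55 in 1 cell.

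Outside the gate the difference of H2-Aa was of like size. In the other epithelial cells H2-Aa was at 544, 137, 262 and 137 CPM in WT and KO set 1 and in WT and KO set 2, a difference of -1.46 (SE 0.33) that was not called there (edgeR adjusted p = 0.999). The test of the difference between the 2 cell groups gave -0.11 (SE 0.25, edgeR adjusted p = 0.999). Wdfy1 had a like pair of values. It had 4, 21, 16 and 77 UMIs in 4, 13, 14 and 33 gated cells and rose by 2.37 (SE 0.36, edgeR adjusted p = 0.000419). In the other epithelial cells it was at 9.64, 38.9, 10.2 and 57.5 CPM, a difference of 2.28 (SE 0.20, edgeR adjusted p = 0.335), and the 2 differences themselves differed by -0.03 (SE 0.39). Wdfy1 lies 4802 kb from Mir375 on chromosome 1.

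**Figure D5:**
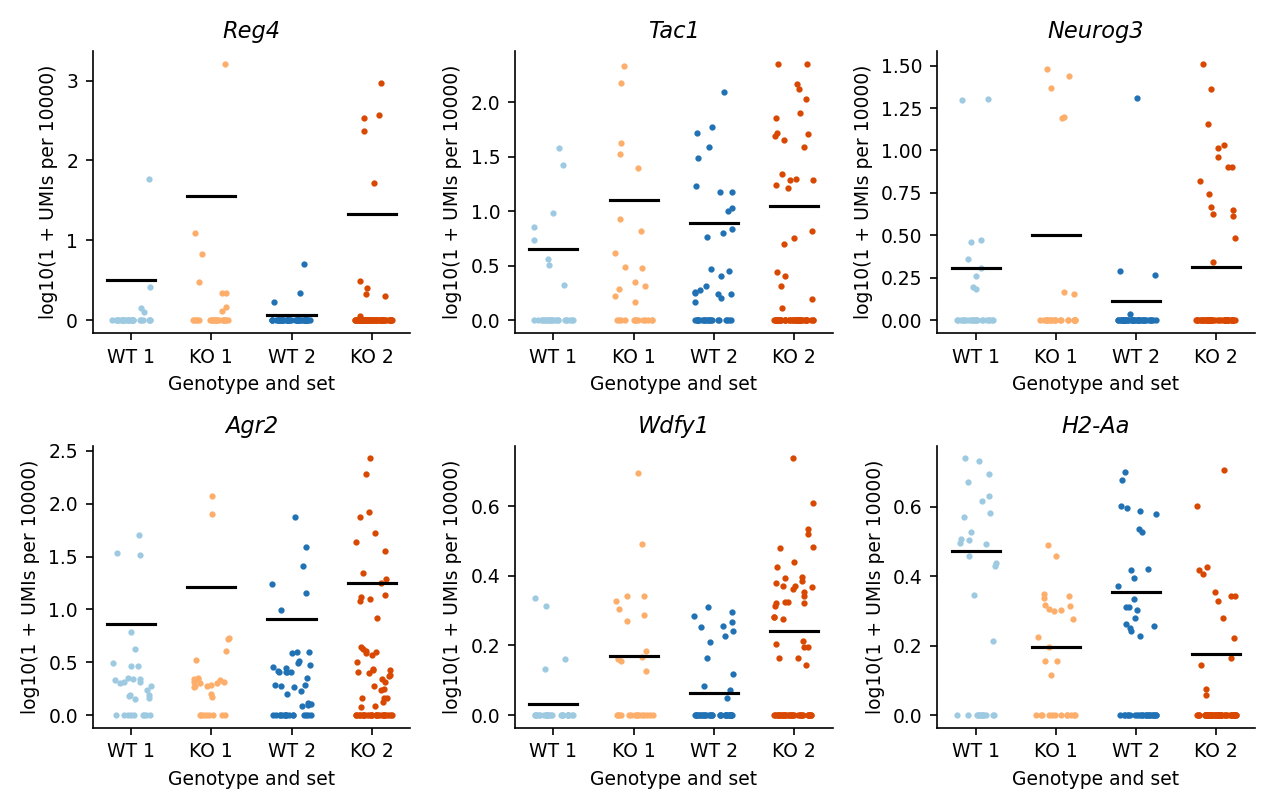
Depth-scaled UMIs of 6 genes (y, log10 of 1 plus the value, a different range in each panel) in every gated cell, by genotype and set (x), with the black bar at the value of the summed cells. Reg4 rests on a few KO cells, while Wdfy1 and H2-Aa differ over many cells, with Wdfy1 in 33 cells of KO set 2 and 14 of WT set 2.

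Whether the KO difference of a gene was the same in gated and other epithelial cells was tested over 8 sums, 2 for each sample. The fit had nearly as many terms as sums, so its p-values lean on a spread estimated over all genes. With 2 samples per genotype, a very small p here is not a measure of replication. At an edgeR adjusted p under 0.05, 75 of 7805 genes (0.961%) differed, 62 with a KO effect more positive in the gated cells (0.794%) and 13 more negative (0.167%). Only 5 of these (Reg4, Rprml, Tac1, Ccl5 and Ccl6) were called when no separate set effect was allowed for the gated cells. In the other epithelial cells alone 1 of 12786 genes (0.00782%) was called, the globin Hba-a2.

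Rprml, a small protein of the reprimo family, was the clearest of the negative ones. In gated cells it had 55, 72, 118 and 127 UMIs in WT and KO set 1 and in WT and KO set 2, in 25, 22, 35 and 48 cells, or 117, 188, 110 and 119 CPM after scaling. In the other epithelial cells it was at 0.526 CPM in WT set 1 and 0.237 CPM in WT set 2, and at 15.3 in KO set 1 and 7.23 in KO set 2. So both KO samples were far above both WT samples outside the gate, by 4.90 (SE 0.23, edgeR adjusted p = 0.0515, not called), while inside the gate the difference was 0.36 (SE 0.22, edgeR adjusted p = 0.999). The test of the difference gave -4.56 (SE 0.31, edgeR adjusted p = 4.13e-44), and -4.01 with tuft cells as the comparison (edgeR adjusted p = 0.000845). Outside the gate the KO level of Rprml stayed below its level inside the gate in every sample. Rprml was spread over the peptide groups, with a UMI in 32 of 39 cells led by Gip, 22 of 25 led by Cck and 23 of 27 led by Tac1.

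Cuedc1 and Fam183b also had a KO effect that was more negative in the gate, with smaller values. Cuedc1 had 9, 13, 27 and 22 UMIs in the gate and was at 1.17, 7.77, 1.58 and 6.47 CPM in the other epithelial cells of WT and KO set 1 and of WT and KO set 2, a difference between cell groups of -2.21 (SE 0.47, edgeR adjusted p = 0.000425). Fam183b had 257, 203, 357 and 388 UMIs in the gate and was at 4.85, 5.99, 1.05 and 7.36 CPM outside it, so that its difference outside the gate lay mostly in set 2 (-1.61, SE 0.22, edgeR adjusted p = 9.81e-11). Both calls were lost without the separate set effect, with RLE scaling and with tuft cells as the comparison.

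On the positive side, the KO effect was larger in the gate for Reg4 (5.42, SE 0.30, edgeR adjusted p = 1.68e-66) and for Tac1 (1.82, SE 0.30, edgeR adjusted p = 5.92e-07). Reg4 kept its call under all 5 alternatives of this test. Adgrd1, an adhesion receptor, had 0, 7, 2 and 50 gated UMIs in WT and KO set 1 and in WT and KO set 2 and differed by 4.80 (edgeR adjusted p = 2.41e-05), with 45 of its 59 UMIs in 4 cells led by Sct or Nts. Sst (-6.09, edgeR adjusted p = 9.68e-13) and Chga (1.14, edgeR adjusted p = 0.000313) also passed this test, but their differences in the gate had opposite signs in the 2 sets. For Neurog3 the 2 cell groups did not differ beyond the threshold (0.79, SE 0.28, edgeR adjusted p = 0.254). Cycling genes were measured in both groups as well: all 8 had negative differences in the gate, with a median of -0.44 and none called, and a median of -0.03 in the other epithelial cells.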

How the data were processed

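Single-cell RNA counts of 4 small intestine samples were used, 2 WT and 2 KO. The authors deposited UMI counts for each gene in each barcode. Cell Ranger and the build mm10 are listed in the submitters' processing notes, beside STAR, Salmon and DESeq2 with no roles, and the set 2 matrix headers give software version 3.0.1. No source used here says whether counting used strand, and antisense overlaps, like near-identical defensins, are therefore uncertain.

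UMIs were summed over gated cells, and over other epithelial cells (outside the gate, without 3 or more genes of a T, B or plasma, myeloid or stromal list). Sums were fitted with edgeR 4.0.16 in R 4.3.3 (quasi-likelihood, TMM, filterByExpr, set as block, Benjamini-Hochberg, threshold 0.05), with DESeq2 1.42.0 as an alternative. The same-set pairs correlated at 0.401 and the crossed pairs at -0.401, which 2 samples per genotype make equal and opposite by construction. The block was kept because the labels number the sets and the comparison was defined within them. The fit was tested on simulated sums. Python 3.11.15, numpy 2.4.6, scipy 1.17.1, pandas 2.3.3, scanpy 1.11.5 and matplotlib 3.10.9 were used. Scrublet called 44 of 9156 cells, which is too few, and an alternative removed the top scores at 0.8% per 1000 barcodes instead.

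The members and lists were chosen with earlier results of these data known. Genes are named by a rule: the gate genes, members of the hormone, serotonin, transcription factor, granule and sensing lists, the 12 called genes of largest difference in each direction with the same sign in both sets (5 in each direction for the difference between cell groups, and those of smallest p where fewer than 5 were called), and the 20 leading genes. Wdfy1, Cryba2, Apoa4, Hba-a2 and the goblet and Paneth genes outside it were chosen after their values were seen. A planned description of genes with miR-375 seed sites was not run, as the mature sequence was not used here. Positions are on GRCm38.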

Additional observations from a re-analysis of the deposited data

Results flagged for a closer look

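For 10 genes named by rule, the knockout difference was not the same in the gated cells and in the other epithelial cells, by edgeR's test of the difference itself over 8 sums. The difference between the cell groups, on the log2 scale, was 5.42 for Reg4, 4.80 for Adgrd1, 2.48 for Ccl5, 2.43 for Erich4 and 2.41 for Ccl6. It was -4.56 for Rprml, -3.05 for Car2, -2.25 for Aspm, -2.21 for Cuedc1 and -1.61 for Fam183b. Single cells held much of some of these genes: 44 of the 50 Ccl6 UMIs of KO set 2 and 35 of the 55 Car2 UMIs of WT set 2 were in 1 cell each.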

How the results depend on the processing

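The number of genes called in the gated cells, 37, depended on the processing. It was 0 with no replicate block, 1 with DESeq2, 23 with RLE scaling, 80 with no filter on low counts, 9 with at least 10 counts in every sample, 50 with 5 or more gate genes, 59 with doublet-scored cells removed, 1 with non-epithelial cells removed, 6 with cells thinned to 1000 UMIs, and 19 to 62 with 1 sample left out and no block (22 without KO set 2). In alternatives added after seeing the data it was 16 without the Paneth-rich cell and 1 without the richest cell of each gene. The block thus decides the call of most named genes: 24 of 26 kept their direction and missed the threshold without it. The number differing between cell groups, 75, was 5 with no cell group by set term, 20 with RLE scaling, 29 against tuft cells, 41 without the Paneth-rich cell and 42 without the richest cells. The difference in the gated share, 0.163 points, was -0.0329 over epithelial cells only and -0.448 to 0.774 with 1 sample left out. The Tac1 share difference, 11.3 points, was 14.8 without non-epithelial cells and 9.09 to 13.5 with 1 sample left out. The count of genes at least 10 times the other cells stayed between 48 and 60. With 1 sample left out and no block, the sign reversed for AY761184 (-0.41), Clps (-0.0018), Defa26 (-0.054), Gip (-0.11 and -0.22) and Gm8730 (0.049 and 0.34). The cause of these changes was not tested.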

Other observations

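Among barcodes outside the filter on cells, 0 of 12 in WT set 1, 1 of 10 in KO set 1, 6 of 4348 in WT set 2 and 3 of 4310 in KO set 2 held at least 4 of the 9 gate genes. Their median mitochondrial share was 31.2%, 39.0% and 34.6% in the last 3 samples.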
